A study of Arabidopsis thaliana with 12 samples.

Results

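Transcripts of 5 nuclear genes of the photosystems were followed in Arabidopsis thaliana, the small flowering plant used as a laboratory model. They are PSAN (AT5G64040) of photosystem I, PSBW (AT2G30570) and PSBY (AT1G67740) of photosystem II, the antenna gene LHB1B2 (AT2G34420), and AT4G37230, a gene of PsbO-like sequence. A gene was taken where an array probe was annotated to it and to no other gene, which gave 1 probe for each of the 5 genes among 692 single-gene probes and 3439 probes in all. The samples were 6 of total RNA from plants grown with iron in excess, called high iron here and described by the submitters as a state of oxidative stress, and 6 from control plants given iron at the normal level. All 12 came from unmutated plants of the ecotype Columbia 0. The sources used here give no tissue, plant age, iron dose or length of treatment.

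Photosystem II and photosystem I are pigment-protein complexes of the thylakoid membrane that work in series: the first takes electrons from water, the second passes them to ferredoxin. Light-harvesting proteins around each complex collect light energy, and many small subunits coded in the nucleus hold core, antenna and donors together. Photosystem I and the cytochrome complex between the photosystems carry iron in their redox centres, so that the photosynthetic membrane holds much of the iron of a green cell. Free iron in excess promotes the formation of reactive oxygen species.

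Each array gave 1 intensity per probe, on a linear scale with an upper limit of 100. The median intensity of an array lay between 0.352 and 0.446 in high iron samples and between 0.555 and 0.618 in control samples, while the array means were alike, at 0.978 to 1.03 and 1.01 to 1.04. Values of 0 numbered 123 to 278 per high iron array and 123 to 145 per control array. Values of the 5 probes were neither 0, nor at the upper limit, nor at the floor set below. In bulk RNA, fewer cells of a type and less RNA per cell cannot be told apart. Within each group, samples 1 and 2 resembled each other, as did 3 and 4 and likewise 5 and 6. Across probes the deviations of such partners from their group mean had correlations of 0.56 to 0.82, while those of samples from different sets had -0.70 to -0.25. Taking deviations from a group mean pushes correlations between sets below 0, so only the likeness of partners is read from them. Results are therefore given over 12 samples and over the 6 averages of these sets. Whether the samples are separate plants or repeat measurements is not labelled, so a p-value reflects the spread among the arrays, part of which may be technical.

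The 5 probes covered nearly the whole range of brightness. PSBW stood at rank 13 of 3439 by its mean log2 level over all 12 arrays, and was the third brightest single-gene probe. PSAN stood at rank 72 and LHB1B2 at rank 108, as numbers 10 and 15 of the 692 single-gene probes. PSBY stood at rank 494, with 14.3% of probes brighter. AT4G37230 stood at rank 2876, with 83.6% of probes brighter, among the dimmest of the array. Relative to the median probe, the quantile-normalised level was 57.2-fold for PSBW, 8.99-fold for PSAN, 6.20-fold for LHB1B2, 2.06-fold for PSBY and 0.465-fold for AT4G37230. These ranks order the brightness of probes and not the numbers of transcripts, since probes differ in length, sequence and amount. LHB1B2 belongs to a family of near-identical antenna genes, so transcripts of its copies may bind the same probe, and relatives of AT4G37230 may do so too.

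The deposited intensities of PSBW and PSAN were higher in all high iron samples than in any control sample. PSBW measured 30.6, 37.2 and 44.7 (lowest, median and highest of 6) in high iron samples, against 16.9, 21.1 and 25.1 in control samples. PSAN measured 4.469, 4.831 and 4.995 in high iron samples, against 3.350, 3.900 and 4.342 in control samples. Such an upward separation of all 6 high iron values from all 6 control values was found in 4.89% of all probes.

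LHB1B2 measured 3.12, 3.37 and 3.83 in high iron samples, against 2.28, 2.55 and 3.22 in control samples. Here 3 of the 6 high iron values lay above all control values, and the groups overlapped. PSBY measured 0.723, 0.993 and 1.46 in high iron samples, against 0.940, 1.02 and 1.13 in control samples, so that its high iron values surrounded those of control samples. AT4G37230 measured 0.221, 0.269 and 0.311 in high iron samples, against 0.142, 0.214 and 0.245 in control samples, with 4 of the 6 high iron values above all control values.

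**Figure D1:**
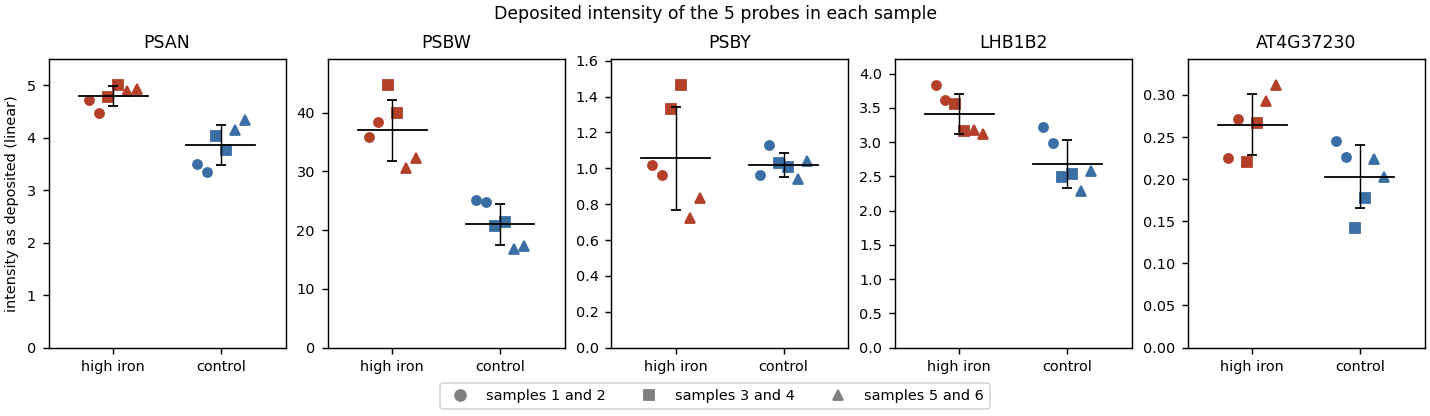
Deposited intensity (linear axis from 0, a separate range per gene) of the 5 probes in 6 high iron and 6 control samples, with marker shapes for the sets of samples, a line at the mean and bars of 1 SD. PSBW and PSAN show no overlap between the groups, and the high iron values of PSBY spread from 0.723 to 1.46 around the control values.

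Whether these genes differed between the groups depended on the scaling of the arrays. As deposited, only the brightest 10% of probes as a whole measured higher at high iron, and the next 10% already measured lower (median log2 change -0.24). With the values as deposited, the median log2 change, high iron minus control, was 0.28 for the brightest 10% of probes and -0.40 for all probes. After division of each array by its median these medians were 0.80 and 0.02, and after quantile normalisation, which gives all arrays the same distribution, 0.05 and 0.00. In limma with Benjamini-Hochberg adjustment over all 3439 probes, 4 of the 5 genes were higher at an adjusted p under 0.05 with deposited values, against 8.46% of all probes. The same 4 genes, PSAN, PSBW, LHB1B2 and AT4G37230, were higher after median scaling, against 24.7% of all probes. After quantile normalisation 1 of the 5 genes was higher, against 18.2% of all probes, and that gene was AT4G37230.

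To set each gene against probes of like brightness, the median of the 100 probes nearest in mean brightness was subtracted on every array. Changes of this brightness-relative level were tested with limma over all probes, and 33.6% of probes passed, 17.4% higher and 16.1% lower. Of the 5 genes AT4G37230 passed, with a higher level at high iron, and 4 did not. The median change of the 5 genes was 0.11, against 0.00 over all probes. With deposited or median-scaled values under the same subtraction, the same gene passed as higher, where 16.9% and 16.5% of probes did. The call was thus the same under the 3 scalings. Division of an array by its median cancels in this subtraction, apart from the floor. Deposited and median-scaled values are therefore not separate checks.

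**Figure D2:**
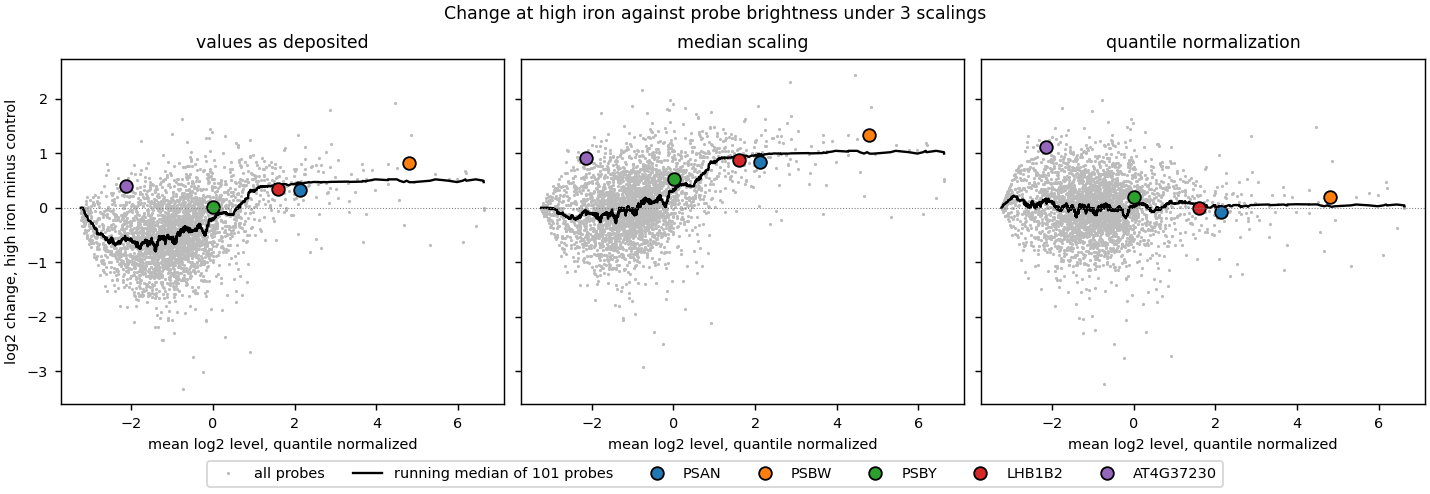
Log2 change (high iron minus control) of every probe against its mean log2 level, with the values as deposited, after median scaling and after quantile normalisation; the black line is the running median over probes of like brightness and the coloured points are the 5 genes. PSAN and LHB1B2 lie near or below the line in the 3 panels, PSBY and PSBW somewhat above it, and AT4G37230 about 1 log2 unit above it.

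PSAN codes for a subunit of photosystem I on the lumen side of the membrane, where plastocyanin delivers electrons. Its probe ranked 71, 77 and 85 (lowest, median and highest) in high iron samples, against 60, 71.5 and 87 in control samples. These ranks do not depend on any scaling that keeps the order of probes within an array, and they overlapped throughout. The brightness-relative log2 level was -0.24, -0.09 and 0.04 in high iron samples, against -0.27, 0.02 and 0.27 in control samples. The change was -0.09 (SE 0.09, 95% interval -0.29 to 0.11, limma adjusted p = 0.487 over 12 samples), which is smaller than the spread of the control samples (SD 0.21, n = 6). By sets it was 0.21 in samples 1 and 2, -0.21 in samples 3 and 4, and -0.27 in samples 5 and 6. Without samples 1 and 2 of both groups the brightness-relative change was -0.24 and did not pass (limma adjusted p = 0.0547), while the quantile-normalised change of -0.22 passed as lower (0.0499). With deposited values PSAN changed by 0.32 on the log2 scale (adjusted p = 0.00165 in limma), where the 100 probes of like brightness had a median change of 0.46 and 62 of them changed more.

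LHB1B2 codes for a protein of the main trimeric antenna of photosystem II, the most abundant pigment protein of the thylakoid. Its probe ranked 99, 120 and 131 in high iron samples, against 94, 122 and 141 in control samples. The brightness-relative level was -0.15, -0.09 and 0.08 in high iron samples, against -0.23, -0.09 and 0.16 in control samples, so the ranges lay one within the other. The change was -0.02 (SE 0.07, limma adjusted p = 0.915), with a 95% interval from -0.18 to 0.14. Over the 6 averages the interval was -0.28 to 0.25. The sets stood at -0.10, 0.04 and 0.01.

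PSBW codes for a small membrane-spanning subunit of photosystem II that helps to hold the antenna to the core. Its probe ranked 12, 12.5 and 15 in high iron samples, against 14, 14 and 17 in control samples. In all 6 pairs of samples with the same number the probe stood higher in the order at high iron, by 1 to 2 places, although the 2 groups of ranks overlapped. The brightness-relative level was 2.09, 2.32 and 2.36 in high iron samples, against 1.87, 2.19 and 2.21 in control samples, and 4 of the 6 high iron values lay above all control values.

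The change of PSBW was 0.18 (SE 0.08, 95% interval 0.01 to 0.36) and did not pass in limma (adjusted p = 0.106). With the replicate number as a block it passed (SE 0.04, adjusted p = 0.0143), where 40.0% of all probes passed. Over the 6 averages it did not pass, without the block (adjusted p = 0.478 in limma) or with it (0.261). The sets stood at 0.17, 0.13 and 0.25. A permutation test over the 12 samples gave p = 0.0325 (two-sided, 1 of 5 such tests run), and over the 6 averages p = 0.30, where the smallest possible value is 0.10. The test over 12 samples takes all arrays as exchangeable, although partners in a set resembled each other. With deposited values the change was 0.82, against a median of 0.47 for the probes of like brightness, 12 of which changed more. Only 12 probes were brighter than PSBW, so 88 of its 100 comparison probes were dimmer. Quantile normalisation gives equal ranks the same value, so high iron samples 1 to 3 (rank 12) shared a log2 level of 4.98. Control samples 1 to 4 (rank 14) shared 4.81, although their deposited intensities ran from 20.8 to 25.1. The SEs and p-values given here for PSBW thus rest on few rank steps.

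PSBY codes for a precursor that is cut into a pair of small photosystem II membrane proteins. It was the most variable of the 5 genes at high iron. Its probe ranked 310, 483 and 902 in high iron samples, against 528, 628 and 729 in control samples. The brightness-relative level was -0.48, 0.07 and 0.48 in high iron samples (SD 0.36, n = 6), against -0.21, -0.08 and 0.04 in control samples (SD 0.10). The change was 0.11 (SE 0.15, 95% interval -0.21 to 0.43, limma adjusted p = 0.622). By sets it was 0.15 in samples 1 and 2, 0.48 in samples 3 and 4, and -0.32 in samples 5 and 6, so 1 set moved against the others. High iron samples 3 and 4 were the highest of the 12, and high iron samples 5 and 6 the lowest. Without samples 3 and 4 of both groups the brightness-relative change turned to -0.08, and likewise without high iron samples 3 and 4 alone, the arrays with the most values of 0 (278 and 271). Without samples 5 and 6 of both groups it was 0.32 and did not pass, while the quantile-normalised change of 0.39 passed (limma adjusted p = 0.0350). With the median of the 20 nearest probe numbers removed, a setting chosen after seeing the data, the brightness-relative change was also -0.08. The direction for PSBY thus rested on which set was included and on that removal.

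**Figure D3:**
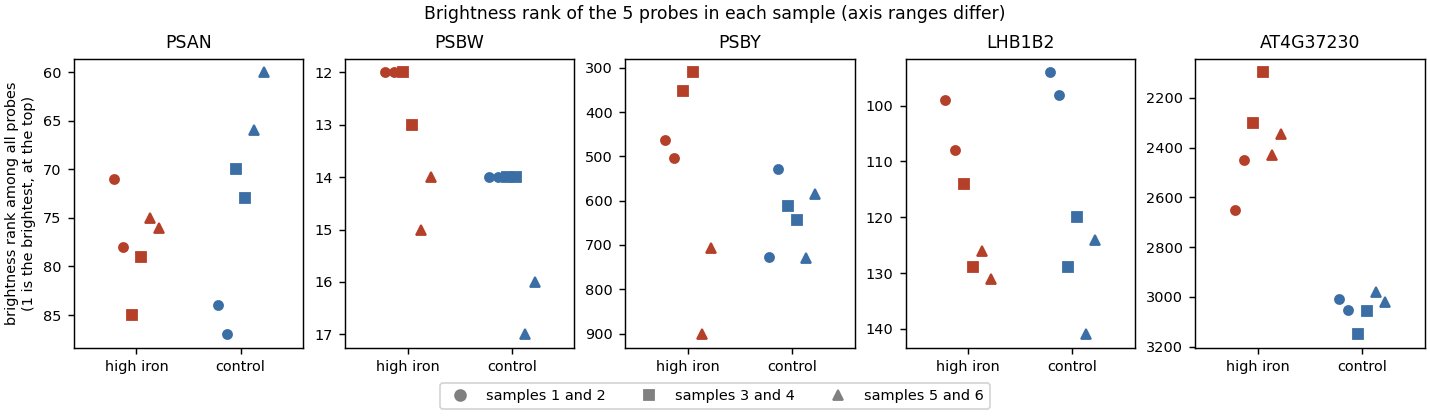
Brightness rank among 3439 probes in each sample (rank 1 is the brightest and the axis runs upward to it; ranges differ between panels), with marker shapes for the sets of samples. The ranks of PSAN, PSBW, PSBY and LHB1B2 overlap between high iron and control samples, and those of AT4G37230 do not.

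AT4G37230 was the gene of this group that passed as higher at high iron in brightness-relative level. It is related in sequence to PsbO, the extrinsic protein that stabilises the manganese cluster where photosystem II splits water. Its probe ranked 2097, 2388 and 2651 in high iron samples, against 2980, 3038 and 3151 in control samples. All 6 high iron ranks were thus brighter than all 6 control ranks, which held for 9.89% of probes. Within the order of 3439 probes the mean rank was 2379 ± 183 at high iron and 3045 ± 59.4 in control samples (SD, n = 6 each).

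The brightness-relative level of AT4G37230 was 0.23, 0.54 and 0.66 in high iron samples, against -0.97, -0.51 and -0.28 in control samples, with no overlap, a separation found upward in 9.39% of probes. It rose by 1.03 on the log2 scale (SE 0.11, adjusted p = 7.04e-05 in limma over 12 samples), or 2.04-fold with a 95% interval of 1.72 to 2.42. Of the 100 probes of like brightness 3 changed more, and the median of their changes was 0.10 before subtraction. The sets stood at 0.86, 1.36 and 0.87, and the level was higher in 6 of 6 pairs of samples with the same number. Over the 6 averages the gene also passed (SE 0.14, limma adjusted p = 0.0341), where 1.66% of probes passed as higher. With the block added to the averages it did not (adjusted p = 0.0767), and 0 of 3439 probes did, although 1063 had an unadjusted p under 0.05 in that limma fit. A permutation test gave p = 0.0022 over 12 samples and 0.10 over 6 averages, in each case the smallest possible (two-sided, 1 of 5 tests run). Both values follow from the lack of overlap and add nothing to it. The test over 12 samples also takes all arrays as exchangeable, although partners in a set resembled each other.

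The size of the rise rests on the scale used. The quantile-normalised change was 1.12 (SE 0.12, adjusted p = 7.24e-05 in limma), and the change with median scaling was 0.92. With the values as deposited it was 0.39 (SE 0.14, adjusted p = 0.0304), where probes of like brightness had a median change of -0.58. In deposited units the mean intensity was 0.265 ± 0.036 at high iron and 0.203 ± 0.038 in control samples (SD, n = 6 each). There the high iron value was higher in 5 of 6 pairs of samples with the same number. By sets the deposited means were 0.249 against 0.236, 0.244 against 0.160 and 0.302 against 0.214, so samples 1 and 2 differed little. The floor stood at 0.106 intensity units after normalisation, or -3.24 on the log2 scale, and cannot be set against the deposited means. On that log2 scale the gene lay at -3.16, -2.65 and -2.48 (lowest, median and highest) in control samples. In high iron samples it lay at -1.88, -1.58 and -1.32. The control values were thus the nearer to the floor. Detection calls or background readings that would tell a dim probe from background were not used here. Of the 20 probes with the nearest probe numbers 0 had a larger brightness-relative change, and their median was 0.05. For PSAN, PSBW, PSBY and LHB1B2 the numbers with a larger change were 13, 6, 11 and 14 of 20. The medians of those neighbours were -0.05, -0.03, 0.13 and 0.13.

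**Figure D4:**
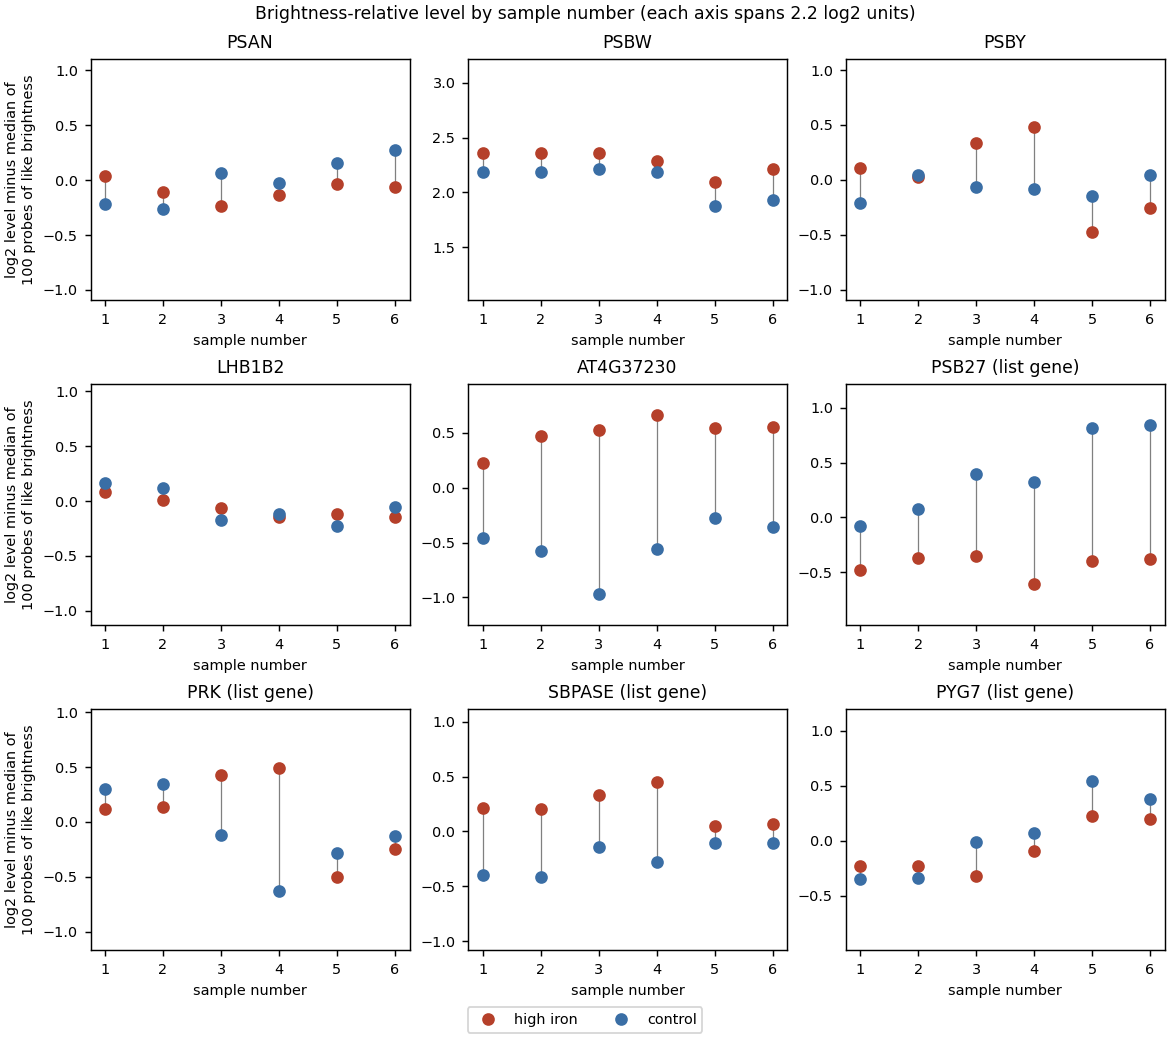
Log2 level minus the median of the 100 probes of like brightness on the same array, for the 5 genes and 4 other photosynthesis genes at each sample number 1 to 6, with high iron in red and control in blue joined by a grey line; each axis spans 2.2 log2 units. AT4G37230 is higher at high iron for all 6 numbers and PSB27 lower for all 6, while LHB1B2 stays within a range of -0.23 to 0.16 in both groups.

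The brightness-relative change of AT4G37230 exceeded those of the other 4 genes by 1.12 over PSAN, 1.05 over LHB1B2, 0.92 over PSBY and 0.85 over PSBW. These gaps are a description, with no test, since AT4G37230 was set against the others for its own change.

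**Figure D5:**
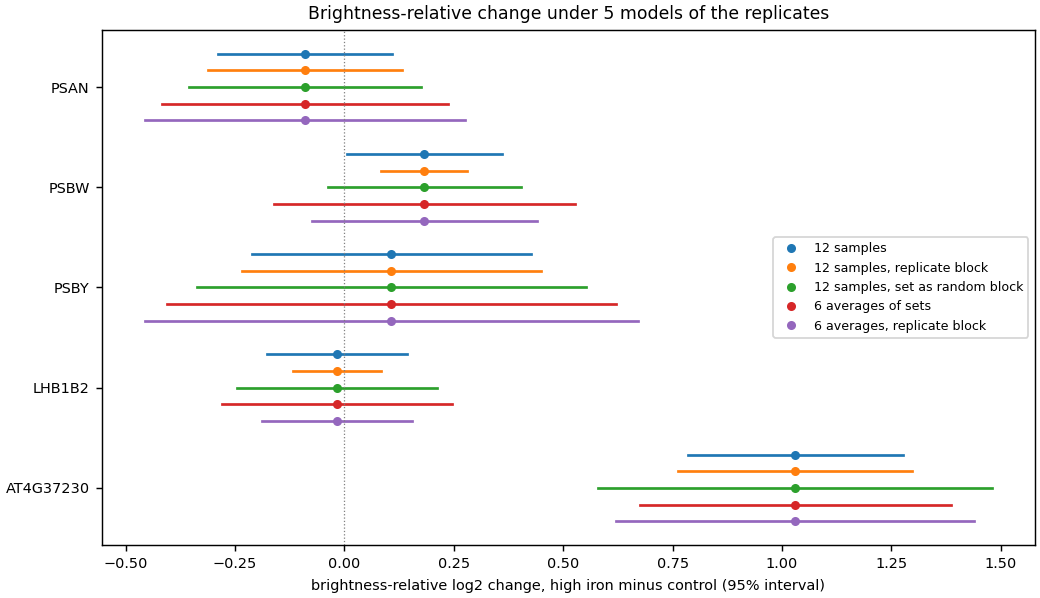
Brightness-relative log2 change, high iron minus control, with its 95% interval in limma for the 5 genes, over 12 samples without and with the replicate number as a block or the set as a random block, and over 6 averages without and with the block. The 5 intervals of AT4G37230 lie above 0.5, those of PSAN, PSBY and LHB1B2 include 0, and those of PSBW include 0 in 3 of the 5 fits.

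Few other genes of the pathway had a probe of their own. Of 12 listed genes of photosystem I, 15 of photosystem II and 21 of the antenna, 1, 4 and 1 were measured by a probe of their own. They are the 5 genes above and PSB27 (AT1G03600). Genes in probes shared with other genes, 3 of the antenna list among them, were not counted as measured. PSB27, an assembly and repair factor of photosystem II, measured 0.792, 0.958 and 0.978 intensity units in high iron samples, against 1.40, 1.76 and 2.16 in control samples. The groups did not overlap, a downward separation found in 27.4% of all probes. Its brightness-relative level fell by 0.83 (SE 0.15, adjusted p = 0.00178 in limma), with -0.42, -0.84 and -1.22 in the 3 sets. Over the 6 averages it did not pass (adjusted p = 0.0996).

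The photosystem II list counts AT4G37230 by its PsbO-like sequence. Of the 4 measured genes of this list, 1 thus rose (AT4G37230), 1 fell (PSB27) and 2 did not pass. Over all probes 17.4% were higher and 16.1% lower, so these counts do not set the list apart. Its median brightness-relative change was 0.14. Of 10 listed genes of electron transport and ATP synthase 0 were measured by a probe of their own, and 1 was in a shared probe. Of 16 genes of the Calvin cycle 2 were measured, and 1 was in a shared probe. SBPASE, its sedoheptulose-bisphosphatase, rose by 0.46 in brightness-relative level (SE 0.09, adjusted p = 0.0024 in limma), but did not pass over the averages (0.128). PRK, its phosphoribulokinase, stood at 0.15 (SE 0.21), with -0.20, 0.83 and -0.17 in the 3 sets. Without samples 3 and 4 of both groups it stood at -0.18. A last list held 13 genes of photosystem assembly and relatives of PsbP or PsbQ, with 2 of them in shared probes. Of these 13, PYG7 (AT1G22700), a factor for photosystem I, was measured, and stood at -0.13 (SE 0.17). Over these 9 genes 2 were higher and 1 lower, near the 17.4% and 16.1% of all probes, with a median change of 0.11 against 0.00.

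Genes whose brightness-relative level ran most like that of each photosystem gene over the 12 arrays were taken from 585 single-gene probes with no value at the floor. The highest Pearson correlations were 0.95, 0.93 and 0.93 for AT4G37230, with AT2G03390, AT1G24040 and AT4G21170. These 3 genes also had higher brightness-relative levels at high iron, by 0.84, 0.83 and 0.63. In all, 51 of the 585 probes correlated with AT4G37230 above 0.8. PSBW ran most like AT2G48130 (0.91), AT5G05400 (0.90) and AT4G01810 (0.89), with 22 probes above 0.8.

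LHB1B2 ran most like AT3G27110 (0.88), AT3G61680 (0.87) and AT3G60590 (0.83), and PSAN like AT2G46190 (0.85), AT5G67490 (0.85) and AT4G14050 (0.81). PSBY ran most like AT5G38310 (0.86), AT2G48090 (0.85) and AT2G46630 (0.83). For LHB1B2, PSAN and PSBY the numbers of probes above 0.8 were 7, 4 and 4. The 12 arrays share the 2 groups and the 3 sets, so that any genes that differ between groups or sets correlate over them.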

How the data were processed

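The values deposited by the authors are linear intensities, 1 for each probe on each array. Neither labels nor headers state the scanner, background correction or scaling, so scale and centring are unknown beyond what the values show. Directions follow the labelled groups. The number of arrays limits the precision. Genes were named from the platform annotation, with symbols updated through a table of assembly TAIR10.1 that held 690 of 692 single-gene probes. Arrays were quantile normalised, floored at the 5th percentile of positive values and taken to log2. The brightness-relative level subtracts the median of the 100 probes nearest in mean level, 50 dimmer and 50 brighter where available. Probes were tested two-sided with limma 3.58.1 in R 4.3.3 (lmFit, eBayes with a mean trend, Benjamini-Hochberg, threshold 0.05), with statmod 1.5.0 for random blocks. The fits were tested on simulated data with independent noise on every array and changes placed outside the dimmest 25% of probes. That simulation covers neither the sets of samples nor a probe as dim as that of AT4G37230. Same-numbered samples of the groups deviated together (correlations 0.13 to 0.52, 12 of 12 best with their own number). The numbers were therefore taken to pair the samples, a pairing read from the data that no label states. It was weakest for samples 3 and 4 (0.21 and 0.13). The 12 matches are not independent, since partners in a set resemble each other. Named were the 5 genes, the measured genes of 6 photosynthesis lists and, for each of the 5, the 3 single-gene probes most like it. Genes and lists were chosen with earlier results of these data known. Alternatives covered scaling, floor, window, dim probes, trend, array weights, blocks, averages and left-out samples.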

Additional observations from a re-analysis of the deposited data

Results flagged for a closer look

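In AT4G37230, the quantile-normalised log2 level of control sample 3 was well below the rest of its group, at -3.16, near the floor of -3.24, with a gap of 0.648 of the range of its group. This was 1 of 36 groups tested for a distant sample; chance alone marks about 1 in 20. Without that sample the brightness-relative change of AT4G37230 was 0.94 and still passed in limma (adjusted p = 5.42e-05).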

How the results depend on the processing

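Quantile normalisation gave 1149 calls in limma, 54.4% of them higher at high iron. Median scaling gave 1286, 66.1% higher, and deposited values 1892, 15.4% higher. With deposited values and median scaling the quantile-normalised change of PSAN (-0.08) turned to 0.32 and 0.84, and that of LHB1B2 (0.00) to 0.35 and 0.88; the brightest 10% of probes moved with them, by 0.28 and 0.80. The brightness-relative fit gave 1155 calls, 51.9% higher. Over 6 averages the counts were 82 for quantile-normalised and 112 for brightness-relative values, 491 and 456 where sets entered as a random block, and with the replicate block over the averages 1 and 0, fits with fewer samples or a shared spread. With the replicate block over 12 samples they were 1392 and 1377. Among the 5 genes the block changed the call of PSBW over 12 samples (0.18, adjusted p = 0.0143) and that of AT4G37230 over averages (1.03, adjusted p = 0.0767), and no other brightness-relative call. Without samples 5 and 6 of both groups PSBW passed at 0.15 (adjusted p = 0.0434); the cause was not tested. With 1 sample left out in turn, AT4G37230 passed in 12 of 12 fits (0.94 to 1.08) and the other 4 genes in 0, with PSAN from -0.14 to -0.04, PSBW from 0.14 to 0.22, PSBY from 0.02 to 0.21 and LHB1B2 from -0.05 to 0.03. With windows of 20 and 200 probes or the values of the 20 nearest probe numbers removed (the last chosen after seeing the data), the brightness-relative change of AT4G37230 passed and those of the other 4 did not; with the last, the quantile-normalised change of LHB1B2 passed as lower (-0.20, adjusted p = 0.0464) and the brightness-relative change of PRK as higher (0.41, adjusted p = 0.0425). The fit without the dimmest 25% of probes did not test AT4G37230. Dim probes are limited by signal over background, which is unknown here.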
